A study of Mus musculus with 19 samples.

Results

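The genes described here are the glycosyltransferases of mouse endometrium that build and cap glycan chains: the sialyltransferases (St3gal, St6gal, St6galnac and St8sia), the fucosyltransferases (Fut), the galactosyl- and N-acetylglucosaminyltransferases (B3galt, B4galt, B3gnt and Gcnt) and the polypeptide N-acetylgalactosaminyltransferases (Galnt). Every gene of the deposited counts whose symbol starts with 1 of these 10 family names followed by a digit was taken, which gave 73 of 49089 genes. Of these, 71 are protein-coding and 2 are antisense RNAs (Galnt6os and St8sia3os). The symbol St6galnac2 stands for 2 overlapping gene models on the same strand, so that their counts are uncertain. With 18 members the Galnt family is the largest, followed by Fut and B3gnt with 8 each, St6galnac, St8sia and B4galt with 7 each, St3gal with 6, B3galt and Gcnt with 5 each, and St6gal with 2.

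RNA-seq was performed on endometrium of WT C57Bl/6 females in 19 libraries. Estrous females that received no treatment gave the group called CONT, with 3 libraries numbered 1, 2 and 4. Females mated with intact Balb/c males and examined on day 3.5 pc gave the group called INT, with 4 libraries. Females mated with surgically modified Balb/c males and examined on the same day gave 3 further groups of 4 libraries, named SVX, SVX_VAS and VAS after their columns in the count table. The sample titles and treatment entries of those 3 groups name a different surgery from the column names: SVX columns carry the title of vasectomised males, SVX_VAS columns that of seminal vesicle-deficient males and VAS columns that of males with both changes. No surgery is therefore attached to a group here. Each library was made from a pool of adult females, all wild type, and the endometrium was scraped from the myometrium as whole tissue, so every value is an average over its cell types. p-values measure the spread between these pools.

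Total counts per library ranged from 12661266 to 31781270, and 3 counts, taken as the floor of detection, corresponded to between 0.108 and 0.236 CPM (counts per 1000000 counts of a library, scaled between libraries). Floors cover counting error only. Libraries VAS 2 and VAS 3 stood apart. Genes that lie wholly under a gene on the opposite strand held 0.0224% and 0.0236% of their counts, against 0.411 to 0.509% in the other 17 libraries, and the summed CPM of 10 stromal marker genes was 2242 and 2428 there against 6355 to 11094 elsewhere. INT libraries also differed among themselves: 7 genes known to respond to estrogen summed to 8995, 3344, 218 and 289 CPM in INT 1 to INT 4, against 11714 to 13764 CPM at estrus. SVX_VAS 2 stood at 8841 CPM on this list and VAS 1 at 2693 CPM. Where leaving out INT 1 and 2, VAS 2 and 3 or SVX_VAS 2 changed the call of a member whose INT levels are given below, this is said beside it.

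Glycosyltransferases act one after another in the Golgi apparatus. Galnt enzymes start mucin-type O-glycans by placing N-acetylgalactosamine on serine or threonine, Gcnt, B3gnt, B3galt and B4galt enzymes branch and lengthen the chains, and sialyl- and fucosyltransferases cap them. The uterine epithelium carries a dense coat of such glycans on mucins and other glycoproteins. Fucosylated and sialylated caps are ligands of lectins such as selectins and siglecs.

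To compare the receptive with the estrous endometrium, INT was compared with CONT. Sialyltransferases were mostly higher after mating, led by St6gal2, St8sia2 and St8sia4, while Fut2, B3gnt3 and 4 Galnt genes (Galnt12, Galnt3, Galnt7 and Galnt4) were lower. Of the 73 members, 59 passed the filter on low counts and were tested. A gene was called when its FDR was 0.05 or less and its log2 fold change (logFC) was at least 0.583 in size. Under this rule 31 members were called (52.5%), 20 higher and 11 lower, against 33.6% of all 17222 genes tested (20.9% higher and 12.7% lower). The median logFC was -0.08 over the 59 members and -0.01 over all genes tested. Some members share exons with a gene on the opposite strand. Among the 38 tested members that share none, 14 were higher and 8 were lower.

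Calls differed in number between the enzyme classes, with no test of the difference. Of 22 sialyltransferase members, 17 were tested, 11 were higher and 2 were lower, with a median logFC of 1.13. Of 18 Galnt members, 14 were tested, 2 were higher and 4 were lower, with a median of -0.60. Of 25 galactosyl- and N-acetylglucosaminyltransferase members, 22 were tested, 6 were higher and 4 were lower, with a median of -0.10. Of 8 Fut members, 6 were tested, 1 was higher and 1 was lower, with a median of -0.33.

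**Figure D1:**
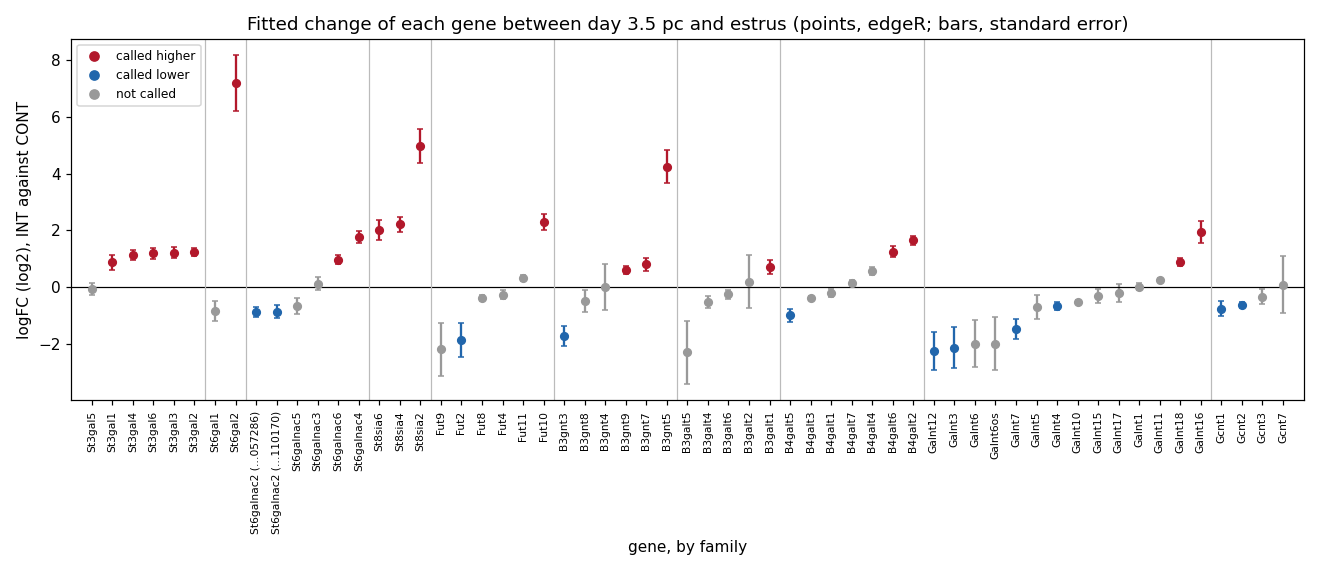
The logFC of each tested member in INT against CONT (points, y axis, log2 scale) with its standard error (bars). Genes are ordered by family along the x axis, and colours mark calls. In INT, 20 points are called higher and 11 lower, and the sialyltransferase families carry 11 of the former.

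St6gal2, which encodes a sialyltransferase of galactose-ended chains, had the largest rise. Its counts were 0, 1 and 2 in CONT 1, 2 and 4, which are below the floor, and its level in INT 1 to INT 4 was 11.6, 5.17, 9.53 and 9.52 CPM. The SVX libraries held 9.66, 16.3, 18.9 and 10.7 CPM, the SVX_VAS libraries 15.99, 6.54, 10.7 and 7.87 CPM and the VAS libraries 1.80, 26.3, 13.4 and 9.11 CPM. Every mated library was above every estrus library, and VAS 1 was the lowest of the mated ones. With the CONT group set at the floor of 3 counts per library, INT was at least 52.4-fold higher, SVX at least 81.1-fold, SVX_VAS at least 60-fold and VAS at least 73.9-fold higher. Without VAS 2 and 3 the bound for VAS was 31.9-fold. The fitted logFC in INT was 7.20 ± 0.98 (FDR = 2.92e-05), and 8.25 ± 1.25 without CONT 4. limma-voom did not call St6gal2 in INT (logFC 6.99, FDR = 0.126) or in VAS (logFC 7.10, FDR = 0.0959). The other gene of this family, St6gal1, which caps N-glycans, lay in the opposite direction. Its level was 146, 99.9 and 146 CPM in CONT 1, 2 and 4 and 91.7, 108, 43.3 and 48.3 CPM in INT 1 to 4, so that INT 2 overlapped with estrus. The logFC of -0.84 ± 0.34 was not called in INT (FDR = 0.0539), whereas St6gal1 fell in SVX (logFC -1.29 ± 0.34, FDR = 0.00435) and SVX_VAS (-1.18 ± 0.34, FDR = 0.00874). The SVX libraries held 59.4, 54.7, 50.9 and 48.0 CPM, the SVX_VAS libraries 50.9, 59.2, 56.0 and 64.9 CPM and the VAS libraries 153, 64.1, 78.8 and 46.3 CPM, of which VAS 1 lay above estrus. St6gal1 was called lower in INT when INT 1 and 2 (logFC -1.51 ± 0.37) or VAS 2 and 3 were left out, and by limma-voom and DESeq2.

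St8sia genes encode enzymes that add sialic acid to sialic acid, and the products of St8sia2 and St8sia4 make polysialic acid. All 3 tested members of this family of 7 rose in INT. St8sia2 was at 0.0594, 0.251 and 0.227 CPM in CONT 1, 2 and 4 and at 2.80, 3.97, 9.13 and 8.47 CPM in INT 1 to 4. It ranged from 4.60 to 6.23 CPM in SVX, from 4.55 to 7.45 CPM in SVX_VAS and from 2.03 to 8.04 CPM in VAS. Estrus levels were at or near the floor, and the groups did not overlap (INT logFC 4.99 ± 0.60, FDR = 1.13e-05). St8sia4 was the St8sia gene with the highest level per kilobase of transcript (3.31 RPKM in INT, RPKM being CPM per kilobase of exon). Its CPM was 8.32, 19.9 and 14.6 in CONT and 56.1, 61.8, 76.6 and 71.5 in INT, a 4.64-fold difference (logFC 2.21 ± 0.27, FDR = 1.13e-05), and it lay between 44.1 and 89.8 CPM in the other 12 libraries. St8sia6 was at 1.25, 1.47 and 2.20 CPM in CONT and at 6.43, 5.86, 6.62 and 7.70 CPM in INT (logFC 2.03 ± 0.35, FDR = 0.00021), and it ranged from 5.30 to 8.56 CPM in SVX, from 5.54 to 7.34 CPM in SVX_VAS and from 3.38 to 12.1 CPM in VAS. All St8sia2, St8sia4 and St8sia6 values of the 16 mated libraries were above those of the 3 estrus libraries. Of the 4 untested members, St8sia3 and its antisense RNA had no count in any library, and St8sia1 and St8sia5 were at most 1.41 and 0.588 CPM. When no filter on low counts was used, St8sia1 had a logFC of 1.92 ± 0.49 in INT (FDR = 0.00699).

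St3gal genes, whose products sialylate galactose on O-glycans, N-glycans and glycolipids, rose together in INT: 5 of 6 were called higher and none lower, with a family median logFC of 1.16. St3gal2 (logFC 1.24 ± 0.14), St3gal3 (1.21 ± 0.20), St3gal6 (1.19 ± 0.18) and St3gal4 (1.13 ± 0.17) had FDR values between 6.67e-06 and 0.000172, and their mated libraries did not overlap with estrus. St3gal6 shares 26.4% of its exon bases with Dcbld2 on the opposite strand. St3gal1, which caps the simplest branch-free O-glycan, was the family member with the highest level per kilobase over all libraries. Its level was 44.8, 86.8 and 70.1 CPM in CONT and 119, 84.1, 162 and 131 CPM in INT. INT 2 lay within the estrus range, and the call (logFC 0.88 ± 0.26, FDR = 0.0114) was lost without CONT 1 (FDR = 0.0714). In the SVX libraries it was at 118, 147, 153 and 162 CPM, in the SVX_VAS libraries at 127, 178, 166 and 151 CPM and in the VAS libraries at 68.5, 129, 99.3 and 143 CPM. The call of St3gal1 in VAS was lost without VAS 2 and 3 (logFC 0.65 ± 0.32, FDR = 0.0941). St3gal5, the GM3 ganglioside synthase, had a logFC of -0.08 with a 95% confidence interval of -0.49 to 0.33 and was not called in any comparison.

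The St6galnac family, which sialylates N-acetylgalactosamine, was divided. St6galnac4 was at 9.04, 13.4 and 12.7 CPM in CONT and at 31.7, 30.7, 52.6 and 44.1 CPM in INT (logFC 1.76 ± 0.21, FDR = 9.07e-06), and it lay between 33.2 and 51.1 CPM in the other 12 libraries, all above estrus. St6galnac6, its neighbour 11 bases away on chromosome 2, also rose (logFC 0.97 ± 0.15, FDR = 7.44e-05). St6galnac2 fell: the gene model ENSMUSG00000057286 was at 98.3, 91.3 and 109.6 CPM in CONT and at 57.3, 70.0, 41.9 and 48.7 CPM in INT (logFC -0.87 ± 0.18, FDR = 0.000744). The second St6galnac2 model, ENSMUSG00000110170, was at 4.87, 4.99 and 4.85 CPM in CONT and at 2.19, 3.40, 2.22 and 2.94 CPM in INT (logFC -0.86 ± 0.23, FDR = 0.0057), and since the models share exon bases these 2 falls are not independent. In the other 12 libraries the first model lay between 37.2 and 66.6 CPM and the second between 1.89 and 4.11 CPM, all below estrus. The family sum was 167 ± 18.4 CPM in CONT (SD, n = 3) and 158 ± 2.93 CPM in INT (SD, n = 4), a difference smaller than the spread at estrus, and its direction changed with the scaling. St6galnac3 and St6galnac5 were not called in INT, and St6galnac1 was not tested, with at most 3.63 CPM.

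Promoters of the genes with the 3 largest rises in INT are shown because these genes lead the increase after mating. Each is the sequence from 250 bases before to 50 bases after the RefSeq transcription start on GRCm38.p6, 5′ to 3′ on the gene's strand, with GGTCA or its complement TGACC (the core of the estrogen response element) and GGGCGG (a GC box) in capitals. St6gal2 is at chr17:55445132-55445431 on the plus strand, St8sia2 at chr7:74013633-74013932 on the minus strand and B3gnt5 at chr16:19759984-19760283 on the plus strand.
St6gal2: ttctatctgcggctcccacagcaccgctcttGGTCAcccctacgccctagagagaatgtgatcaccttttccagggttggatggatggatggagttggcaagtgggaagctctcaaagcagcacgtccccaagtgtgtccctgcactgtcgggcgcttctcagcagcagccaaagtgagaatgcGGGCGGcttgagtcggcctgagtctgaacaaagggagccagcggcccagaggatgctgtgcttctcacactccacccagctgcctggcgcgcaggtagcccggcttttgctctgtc
St8sia2: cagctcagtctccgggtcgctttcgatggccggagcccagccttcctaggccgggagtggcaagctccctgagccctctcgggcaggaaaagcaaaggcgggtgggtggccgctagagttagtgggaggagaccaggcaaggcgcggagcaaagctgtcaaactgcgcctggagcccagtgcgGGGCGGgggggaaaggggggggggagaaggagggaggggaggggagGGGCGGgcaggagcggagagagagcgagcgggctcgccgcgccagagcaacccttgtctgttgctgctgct
B3gnt5: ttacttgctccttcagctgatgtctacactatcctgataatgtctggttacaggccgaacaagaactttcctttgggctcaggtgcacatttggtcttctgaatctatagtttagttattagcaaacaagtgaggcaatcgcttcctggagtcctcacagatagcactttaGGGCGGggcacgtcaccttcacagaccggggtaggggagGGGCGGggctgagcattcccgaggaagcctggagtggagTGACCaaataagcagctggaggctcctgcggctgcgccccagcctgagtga
GGTCA was found at base -219 of St6gal2 and at base -1 of B3gnt5, counted from the start site, and not in the St8sia2 window. GGGCGG was searched on both strands and occurred in all 3.

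B3gnt genes encode N-acetylglucosaminyltransferases that lengthen chains, and B3gnt5 makes the precursor of lacto- and neolacto-series glycolipids. B3gnt5 was at 1.72, 1.97 and 2.43 CPM in CONT and at 28.1, 35.1, 19.4 and 72.8 CPM in INT, a 19.1-fold rise (logFC 4.25 ± 0.59, FDR = 3.33e-05). The SVX libraries lay between 29.4 and 61.9 CPM and the SVX_VAS libraries between 27.9 and 47.9 CPM, while the VAS libraries held 11.2, 48.0, 54.0 and 54.2 CPM. No mated library overlapped with estrus. B3gnt7 (logFC 0.81 ± 0.22, FDR = 0.00723) and B3gnt9 (0.61 ± 0.15, FDR = 0.00293) also rose, and the call of B3gnt9, near the fold threshold, was lost in 6 of 29 alternative settings.

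B3gnt3, which extends core O-glycans, was the B3gnt gene with the highest level per kilobase at estrus (38.7 RPKM) and it fell. Its level was 135, 105 and 114 CPM in CONT and 56.6, 47.8, 20.5 and 18.8 CPM in INT (logFC -1.72 ± 0.36, FDR = 0.000909), with INT 1 and 2 above INT 3 and 4 and all 4 below estrus. The SVX libraries held 20.5, 23.0, 23.0 and 22.4 CPM, the SVX_VAS libraries 20.9, 42.6, 19.8 and 29.9 CPM and the VAS libraries 45.6, 36.5, 30.5 and 21.2 CPM. Without INT 1 and 2 the logFC of B3gnt3 in INT was -2.59 ± 0.34. B3gnt4 and B3gnt8 were not called in INT, and B3gnt2 and B3gnt6 were not tested, with at most 2.02 CPM.

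**Figure D2:**
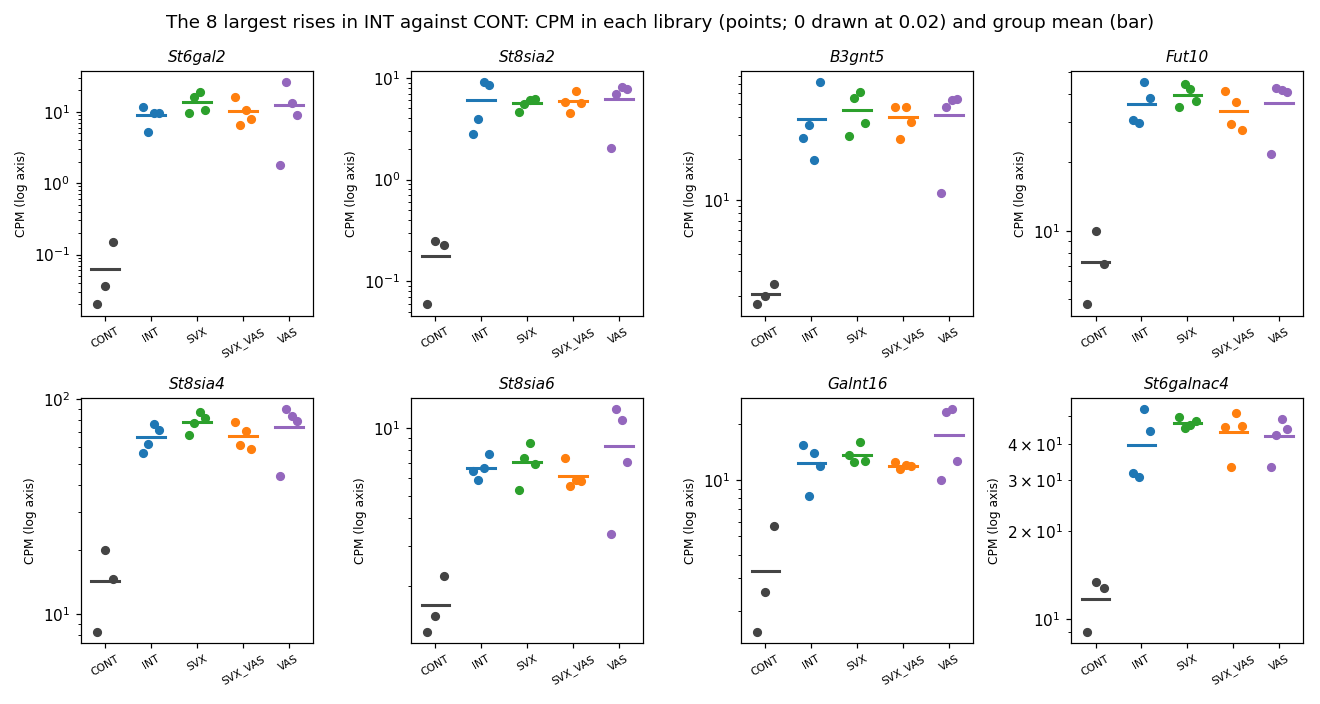
CPM of the 8 members with the largest rises in INT in each library (points, log axis, 0 drawn at 0.02) with the group mean (bar), for CONT, INT, SVX, SVX_VAS and VAS. St6gal2 goes from 0 to 0.152 CPM at estrus to 1.80 to 26.3 CPM in the mated libraries.

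Fucosyltransferases attach fucose, and the protein of Fut2 makes the H antigen of secretions while that of Fut9 makes the Lewis X structure. The 8 Fut genes had summed levels of 1289 ± 24.7 CPM in CONT (SD, n = 3) and 433 ± 240.3 CPM in INT (SD, n = 4), with 714, 552, 243 and 223 CPM in INT 1 to 4. Every mated library had a lower sum than every estrus library. At estrus Fut2 and Fut9 made most of it, Fut9 alone giving 48.9% of the sum.

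Fut2 (chr7:45648591-45666394) had the highest level per kilobase of all members at estrus, 96.1 RPKM. In the mean over the INT libraries it ranked among the 3 highest with 26.2 RPKM, with INT 1 and 2 far above INT 3 and 4. In SVX it was not among the 8 highest. It was at 561, 484 and 519.8 CPM in CONT 1, 2 and 4 and at 269, 203, 46.3 and 50.6 CPM in INT 1 to 4. It ranged from 54.0 to 68.5 CPM in SVX, held 50.6, 226, 57.0 and 103 CPM in SVX_VAS and 156, 106, 62.0 and 47.7 CPM in VAS. All mated libraries were below estrus, and the highest of them were INT 1, SVX_VAS 2 and INT 2, which were also the highest on the estrogen-response list. In the sum of 10 epithelial marker genes, the highest mated libraries were INT 1, VAS 1, INT 2 and SVX_VAS 2 (2888, 2551, 2431 and 2306 CPM). The fall was 3.67-fold in INT (logFC -1.88 ± 0.60, FDR = 0.0164) and its logFC was -3.11 ± 0.62 in SVX, -2.26 ± 0.60 in SVX_VAS and -2.49 ± 0.61 in VAS. Without INT 1 and 2 the logFC of Fut2 in INT was -3.43 ± 0.63 (FDR = 0.000493), and without SVX_VAS 2 it was -2.90 ± 0.61 in SVX_VAS.

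Fut9, described although outside the rule for named genes because its values had been seen, had a similar layout of libraries, with INT 1, INT 2, SVX_VAS 2 and VAS 2 highest among the mated ones. It was at 566, 669 and 656 CPM in CONT and at 291, 206, 25.0 and 28.3 CPM in INT. SVX libraries held 62.5, 32.7, 32.3 and 25.9 CPM, SVX_VAS libraries 29.9, 335, 26.1 and 60.2 CPM and VAS libraries 161, 229, 76.8 and 29.2 CPM. With such spread the logFC of -2.20 ± 0.94 in INT was not called (FDR = 0.0643), although no INT library reached the estrus range. Fut9 fell in SVX (logFC -4.04 ± 1.002, FDR = 0.0026), SVX_VAS (-2.48 ± 0.95, FDR = 0.0358, and -4.03 ± 0.92 without SVX_VAS 2) and VAS (-2.35 ± 0.94, FDR = 0.0433). It was called lower in INT by DESeq2 and without INT 1 and 2 (logFC -4.56 ± 1.17), and lost its call in VAS without VAS 2 and 3 (logFC -2.73 ± 1.26, FDR = 0.0816).

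Fut10 moved the other way. It was at 4.76, 9.98 and 7.13 CPM in CONT and at 30.6, 29.7, 45.1 and 38.3 CPM in INT, a 4.90-fold rise (logFC 2.29 ± 0.27, FDR = 9.61e-06). In SVX it lay between 35.0 and 44.1 CPM, in SVX_VAS between 27.7 and 40.9 CPM and in VAS between 21.8 and 42.5 CPM, all above estrus. Fut4, Fut8 (the core fucosyltransferase of N-glycans) and Fut11 were not called in any comparison with CONT. Fut1 and Fut7 were not tested, with at most 3.03 CPM. When no filter on low counts was used, Fut1, which lies 27532 bases from Fut2 on chromosome 7 and makes the same antigen, had a logFC of -2.13 (FDR = 0.0358).

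Galnt genes were the largest family and held the largest called fall in INT against CONT. Galnt12 (chr4:47091909-47123070) was at 140.2, 103 and 117 CPM in CONT and at 37.6, 48.3, 7.59 and 7.28 CPM in INT, a 4.77-fold fall (logFC -2.25 ± 0.66, FDR = 0.0103). It ranged from 5.59 to 10.8 CPM in SVX and from 5.93 to 21.6 CPM in SVX_VAS, and held 48.2, 19.1, 19.3 and 7.55 CPM in VAS. At estrus Galnt12 was second per kilobase to Fut2, with 52.4 RPKM, and all mated libraries were below all estrus libraries. Without INT 1 and 2 the logFC of Galnt12 in INT was -4.01 ± 0.73 (FDR = 0.000456).

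Galnt3, known for protecting the hormone FGF23 from cleavage, was at 168, 161 and 159 CPM in CONT and at 70.6, 51.2, 17.2 and 8.54 CPM in INT (logFC -2.14 ± 0.73, FDR = 0.0235). Its FDR rose past the threshold when CONT 1 (0.0527), INT 3 (0.0590) or INT 4 (0.0594) was left out. In SVX it was at 26.2, 9.91, 8.34 and 9.82 CPM (logFC -3.58 ± 0.77, FDR = 0.000875), in SVX_VAS at 9.76, 43.9, 7.98 and 29.6 CPM and in VAS at 67.6, 34.9, 25.6 and 9.32 CPM. Without INT 1 and 2 the logFC of Galnt3 in INT was -3.65 ± 0.91 (FDR = 0.00393). Galnt7, whose enzyme prefers peptides that already carry a sugar, was at 269, 235 and 239 CPM in CONT and at 145, 107, 46.8 and 54.7 CPM in INT (logFC -1.49 ± 0.36, FDR = 0.0029, and -2.29 ± 0.36 without INT 1 and 2). The SVX libraries held 59.3, 53.0, 56.1 and 46.6 CPM of Galnt7, the SVX_VAS libraries 56.2, 118, 53.7 and 75.5 CPM and the VAS libraries 108, 87.9, 59.7 and 47.7 CPM, so that no mated library reached the estrus range. Galnt4 fell less (logFC -0.67 ± 0.15, FDR = 0.00192), and lost its call with upper quartile scaling and without INT 4. Galnt12, Galnt3, Galnt7 and Galnt4 fell in all 4 comparisons with CONT, and Galnt10 in SVX and SVX_VAS. Without VAS 2 and 3, neither Galnt3 (logFC -2.08 ± 0.97, FDR = 0.0844) nor Galnt12 (-2.10 ± 0.87, FDR = 0.0540) was called in VAS, where they had logFC values of -2.24 and -2.35 with all 4 libraries. Without VAS 1 the logFC of Galnt12 there was -2.96 ± 0.69.

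Galnt6, again outside the rule for named genes and chosen after its values were seen, was at 32.2, 51.9 and 35.5 CPM in CONT and at 19.4, 11.1, 4.56 and 4.69 CPM in INT. It was not called in INT (logFC -2.01 ± 0.83, FDR = 0.0559), but it was called lower there without INT 1 and 2 (logFC -3.11 ± 1.11, FDR = 0.0308), without VAS 2 and 3, by limma-voom and by DESeq2. It fell in SVX (-3.11 ± 0.86, FDR = 0.00554). SVX_VAS 2 and VAS 2, with 34.1 and 37.7 CPM, lay within the estrus range. Galnt6 was called lower in SVX_VAS without SVX_VAS 2 or without VAS 2 and 3, and in VAS without VAS 2 and 3. Its antisense RNA Galnt6os, which shares 21.4% of its exon bases with Galnt6, fell in SVX (logFC -2.99 ± 0.97) and VAS (-3.78 ± 1.01). Galnt6os had no count in VAS 2 and 3 and was at 1.01 and 0.706 CPM in VAS 1 and 4. It was still called lower in VAS without VAS 2 and 3 (logFC -2.72 ± 0.87, FDR = 0.0179) and without VAS 1 (-4.80 ± 1.16, FDR = 0.00209).

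Galnt16 and Galnt18 rose. Galnt16 was at 1.55, 2.51 and 5.69 CPM in CONT and at 15.4, 8.19, 13.9 and 12.0 CPM in INT (logFC 1.94 ± 0.38, FDR = 0.000644, and 2.59 ± 0.37 without CONT 4), and had a highest level of 24.0 CPM in the other 12 libraries, all of which were above estrus. Galnt18 had a logFC of 0.88 ± 0.14 (FDR = 7.94e-05). Galnt1, the family member with the highest level per kilobase over all libraries, was at 176, 162 and 155 CPM in CONT and at 169, 160.1, 152 and 184 CPM in INT. Its logFC of 0.01 had a 95% confidence interval of -0.25 to 0.28, and INT overlapped with estrus. It lay between 151 and 187 CPM in the other libraries, apart from VAS 2 and 3 with 106 and 108 CPM. Galnt5, Galnt11, Galnt15 and Galnt17 were not called in INT. The untested members Galnt2, Galnt9, Galnt13 and Galnt14 were below 3 CPM in every library except Galnt13 in CONT 4 (3.18 CPM) and INT 1 (8.24 CPM). Galnt2 shares 90% of its exon bases with a gene model on the same strand, so that its low counts are uncertain.

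**Figure D3:**
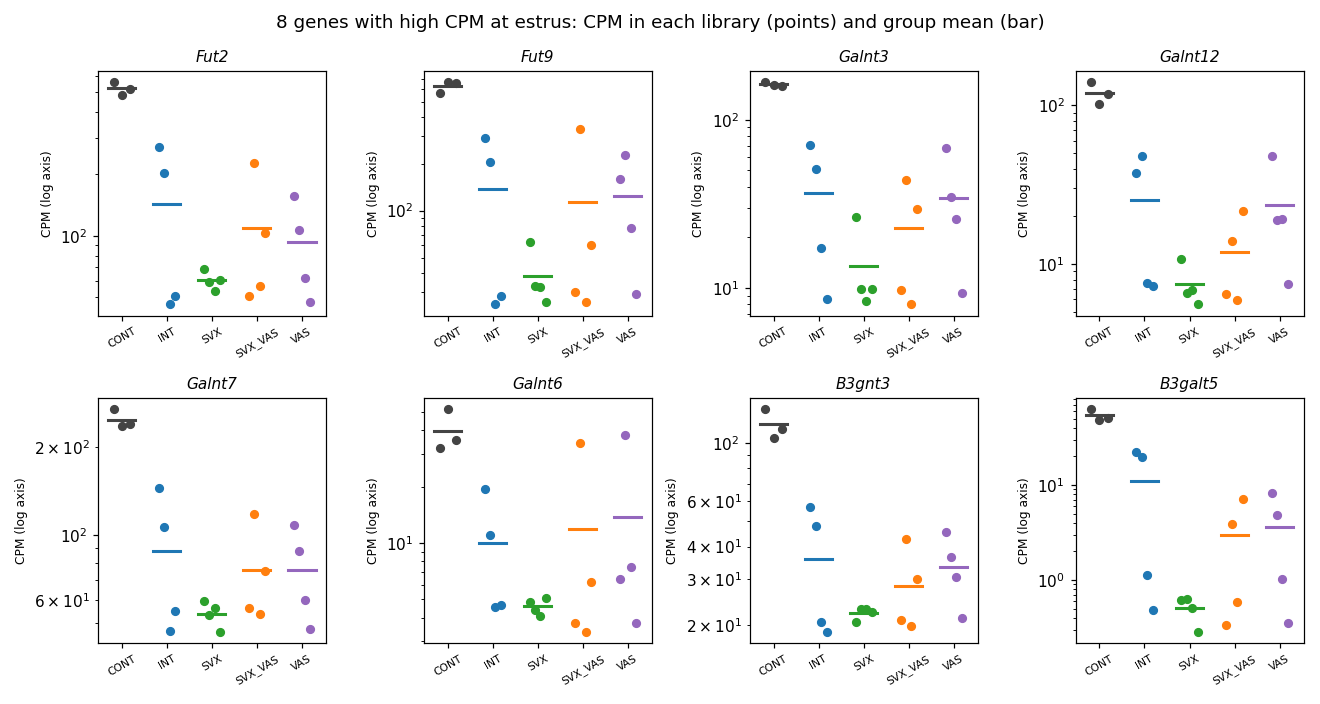
CPM in each library (points, log axis) and group mean (bar) of 8 members with high levels at estrus, by group. Fut2 stands at 484 to 561 CPM in CONT and at 46.3 to 269 CPM in the mated libraries, where INT 1, SVX_VAS 2 and INT 2 are the upper points.

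Promoters of 3 of the genes that fell in all 4 comparisons with CONT are shown for comparison with those of the genes that rose. The window, build, orientation and capitals are as above. Galnt3 is at chr2:66124744-66125043, B3gnt3 at chr8:71701751-71702050 and Galnt7 at chr8:57653006-57653305, all on the minus strand.
Galnt3: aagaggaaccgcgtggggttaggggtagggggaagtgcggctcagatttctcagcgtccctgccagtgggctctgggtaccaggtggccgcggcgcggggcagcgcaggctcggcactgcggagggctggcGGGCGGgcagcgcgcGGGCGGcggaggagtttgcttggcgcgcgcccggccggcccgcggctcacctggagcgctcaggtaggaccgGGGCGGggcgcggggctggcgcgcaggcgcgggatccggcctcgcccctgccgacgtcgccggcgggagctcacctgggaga
B3gnt3: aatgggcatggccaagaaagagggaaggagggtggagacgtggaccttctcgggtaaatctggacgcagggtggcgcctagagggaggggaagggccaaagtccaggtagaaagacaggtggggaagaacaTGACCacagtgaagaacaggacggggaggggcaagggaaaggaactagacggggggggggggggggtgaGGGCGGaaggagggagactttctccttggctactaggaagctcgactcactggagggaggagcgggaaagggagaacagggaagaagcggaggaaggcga
Galnt7: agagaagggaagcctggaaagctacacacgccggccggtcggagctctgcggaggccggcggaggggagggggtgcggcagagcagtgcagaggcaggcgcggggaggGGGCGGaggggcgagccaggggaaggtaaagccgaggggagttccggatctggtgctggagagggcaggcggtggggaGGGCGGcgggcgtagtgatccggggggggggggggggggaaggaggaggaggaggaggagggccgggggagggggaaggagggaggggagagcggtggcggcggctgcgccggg
GGTCA occurred once, in B3gnt3 (as TGACC, starting at base -119), and GGGCGG occurred in all 3. Promoters of 52 of the 72 member symbols were matched in RefSeq. All motifs were searched on both strands, in the first promoter listed for each gene. The 27018 promoters used for comparison were not limited to protein-coding genes or to genes tested here. A set of promoters matched to the members was not examined. GGGCGG was present in 65.4% of the members' promoters and in 35.9% of all 27018 promoters of the same length, and TATAAA in 1.92% against 14.2%. The members' windows held a median of 20 CG dinucleotides, against 7 over all promoters. GGTCA was present in 26.9% against 40.2%, the complete palindromic element (GGTCA, 3 bases of any kind and TGACC, which therefore contains GGTCA) in 0% against 0.0666%, the progesterone receptor motif ACANNNTGT in 7.69% against 6.91% and the AP-1 motif TGANTCA in 3.85% against 7.94%. Among called members, GGTCA was present in 5 of the 14 matched that rose and in 1 of the 6 matched that fell.

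Galactosyltransferases of the B4galt family lengthen N-glycans and glycolipids. B4galt1, the main enzyme of this step, was the member with the highest level per kilobase in INT (44.2 RPKM). It was at 219, 211 and 215 CPM in CONT and at 201, 165, 182 and 200.02 CPM in INT. All INT libraries were slightly below estrus, but the logFC of -0.20 (95% confidence interval -0.47 to 0.07) was not called. The SVX libraries held 159, 178, 187 and 161 CPM, the SVX_VAS libraries 167, 213, 189.7 and 184 CPM and the VAS libraries 157, 121, 112 and 179.9 CPM. B4galt1 was called lower in VAS (logFC -0.59), but not without VAS 2 and 3 (-0.35). B4galt5 and B4galt6, which encode the lactosylceramide synthases, moved in opposite directions. B4galt5 fell from 175, 109 and 156 CPM in CONT to 80.2, 87.3, 77.2 and 48.5 CPM in INT (logFC -1.002 ± 0.23, FDR = 0.00177), and lay between 47.0 and 89.7 CPM in the other 12 libraries. B4galt6 rose from between 31.7 and 39.2 CPM to between 62.3 and 95.4 CPM (logFC 1.24 ± 0.19, FDR = 8.44e-05). B4galt2 rose 3.14-fold (logFC 1.65 ± 0.16, FDR = 3.35e-06). B4galt3, B4galt4 and B4galt7 were not called in INT, and B4galt4 was called higher in the other 3 comparisons with CONT. B4galt4 was called higher in INT without INT 1 and 2, and lost its call in VAS without VAS 2 and 3.

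In the B3galt family, B3galt1 was called higher in INT (logFC 0.70 ± 0.24, FDR = 0.0248), a call that was lost in 6 of 29 alternative settings, among them the one without INT 1 and 2. In VAS it lost its call without VAS 2 and 3 (logFC 0.54 ± 0.23, FDR = 0.0596). B3galt5, which builds the type of chain found in mucous secretions, was chosen after its values were seen. It was at 63.0, 48.7 and 50.6 CPM in CONT and at 22.5, 19.7, 1.14 and 0.490 CPM in INT. SVX libraries held 0.623, 0.629, 0.512 and 0.287 CPM, SVX_VAS libraries 0.338, 3.94, 0.593 and 7.06 CPM and VAS libraries 8.23, 4.85, 1.03 and 0.353 CPM. All mated libraries were below estrus, with INT 1 and 2 nearest to it. The logFC of -2.31 ± 1.11 was not called in INT (FDR = 0.0988), while B3galt5 fell in SVX (-6.71 ± 1.39, FDR = 0.00065), SVX_VAS (-4.20 ± 1.20, FDR = 0.00749) and VAS (-3.89 ± 1.18, FDR = 0.01). B3galt5 was called lower in INT without INT 1 and 2 (logFC -6.02 ± 1.44, FDR = 0.00315) and by limma-voom. Its logFC was -5.05 ± 1.38 in SVX_VAS without SVX_VAS 4 and -4.67 ± 1.34 in VAS without VAS 1.

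B3galt2 had the highest level per kilobase of its family in the mean over all 19 libraries, although B3galt5 was higher at estrus. It was at 48.5, 51.2 and 50.6 CPM in CONT and at 63.2, 52.0, 54.0 and 59.6 CPM in INT, and was not called in any comparison by edgeR. It lay between 57.1 and 71.2 CPM in the SVX and SVX_VAS libraries. VAS 2 and 3 held 0.467 and 0.470 CPM against 49.4 and 60.2 CPM in VAS 1 and 4. In the same libraries Gcnt7 and Galnt6os had no count, B3gnt4 was at 0.0933 and 0 CPM, and B3gnt8 was at 15.3 and 6.91 CPM. All 5 genes share exon bases with a gene on the opposite strand, Galnt6os with Galnt6. For the other 4 (7.31% of B3galt2, 93.2% of B3gnt4, 18.1% of B3gnt8 and 2.75% of Gcnt7), the partners (Cdc73, Diablo, Bckdha and Rtf2) were within the range of the other 17 libraries there, Cdc73 being at 158 and 151 CPM. Exon overlap with the opposite strand was found in 27 of the 73 members, and not all of them were low in VAS 2 and 3. B3gnt7 (12.6% shared) was at 9.89 and 9.88 CPM there, and B4galt3 (14.5%) at 49.5 and 47.1 CPM. Without VAS 2 and 3 the logFC of B3galt2 in VAS was 0.13, against -0.87 with them.

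Gcnt enzymes make branches. Gcnt1, which starts core 2 O-glycans, and Gcnt2, the I-branching enzyme, were lower in INT (logFC -0.76 ± 0.26, FDR = 0.0236, and -0.64 ± 0.10, FDR = 7.37e-05). Gcnt1 lost its call without CONT 1 (FDR = 0.0712) or INT 2 (FDR = 0.0562), and Gcnt2 with upper quartile scaling. Gcnt3, a branching enzyme of mucins, had the highest level per kilobase of its family in the mean over all 19 libraries, but not in each group. It was at 128, 115 and 142 CPM in CONT and at 86.4, 124, 54.3 and 138 CPM in INT. INT 2 and INT 4 lay within the estrus range and Gcnt3 was not called in INT, although it was lower in SVX (logFC -0.73 ± 0.27, FDR = 0.0286) and SVX_VAS (-0.67 ± 0.27, FDR = 0.0453), the latter call being lost without SVX_VAS 2 (FDR = 0.121). Gcnt3 was at 71.9, 80.9, 95.7 and 60.8 CPM in the SVX libraries, at 94.5, 55.3, 92.2 and 80.6 CPM in the SVX_VAS libraries and at 138, 88.2, 87.8 and 96.4 CPM in the VAS libraries. Gcnt4 was not tested, with at most 3.64 CPM, and without a filter it had a logFC of 2.26 (FDR = 0.00012).

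**Figure D4:**
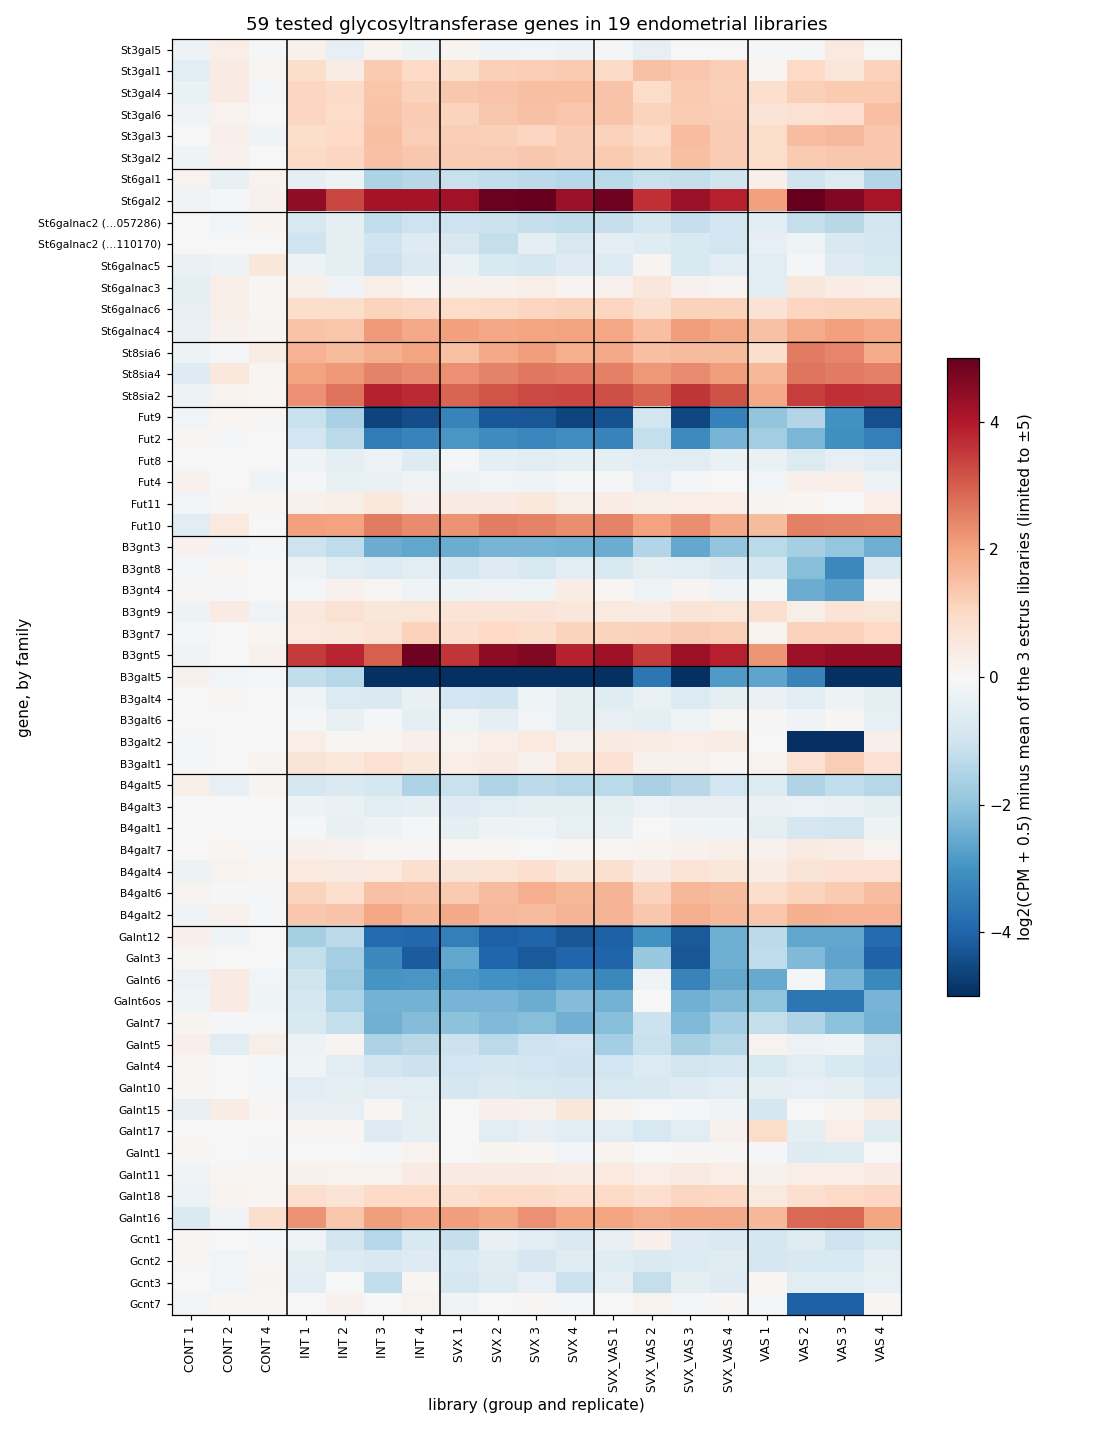
Heat map of log2(CPM + 0.5) minus the mean of the 3 estrus libraries (colour, limited at 5 in either direction) for the 59 tested members (rows, by family) in the 19 libraries (columns, by group). The sialyltransferase families are mostly above 0 in the mated libraries, and INT 1, INT 2 and SVX_VAS 2 are the palest mated columns for Fut2.

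In the 3 groups mated with surgically modified males, which share the CONT libraries with the comparison above, more members passed the threshold. In SVX 41 of 59 were called (69.5%), 20 higher and 21 lower, against 41.6% of all genes (23.1% higher and 18.5% lower). In SVX_VAS 35 were called (59.3%), 19 higher and 16 lower, against 38.6% of all genes (22.2% and 16.5%). In VAS 37 were called (62.7%), 21 higher and 16 lower, against 40.6% of all genes (23.3% and 17.3%). Median logFC over the members was -0.06, -0.06 and -0.12 in SVX, SVX_VAS and VAS, against -0.01, -0.02 and -0.07 over all genes. With upper quartile scaling the members called in VAS were 21 higher and 10 lower, and 28.8% of all genes were higher and 12.1% lower there. In SVX the same scaling gave 27.2% of all genes higher and 14.3% lower, with 21 members higher and 16 lower. By limma-voom 38 members were called in VAS, against 50.9% of all genes (22.6% higher and 28.2% lower).

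Over the 4 comparisons with CONT, 18 members were called higher in all 4 and 10 lower in all 4, and 15 were never called, against 18.9%, 10.7% and 51% of all genes tested. These comparisons share the CONT libraries. Sialyltransferases gave 11 higher members in each comparison. The members called lower in all 4 were Fut2, Galnt3, Galnt4, Galnt7, Galnt12, B3gnt3, B4galt5, Gcnt2 and both St6galnac2 models. In the pooled view of all 16 mated libraries, 19 of the 59 lay wholly above the 3 estrus libraries and 17 wholly below, against 22.4% and 23.1% of all genes. Without SVX_VAS 2, 38 members were called in SVX_VAS (against 39.9% of all genes), and without VAS 2 and 3, 32 were called in VAS (against 36.3% of all genes).

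The question whether the male's surgery changed these genes was addressed by comparing SVX, SVX_VAS and VAS with INT. edgeR called 0 of the 59 members in each, as it called 0% of all genes. At an unadjusted p under 0.05 there were 7, 4 and 4 members in SVX, SVX_VAS and VAS, while 4.35%, 1.97% and 10.6% of all genes passed that level. The members with the smallest p were Galnt10 in SVX (logFC -0.29), Galnt5 in SVX_VAS (logFC -1.09) and B4galt1 in VAS (logFC -0.39). DESeq2 called 0 members in each, with 12, 4 and 5 at an unadjusted p under 0.05, while 5.11%, 2.52% and 12.3% of all genes passed that level by DESeq2. limma-voom called 0 in SVX and SVX_VAS and 4 in VAS (B3galt2, B3gnt4, B3gnt8 and Gcnt7), which are 4 of the 5 members with low counts in VAS 2 and 3 described above, while it called 9.66% of all genes in VAS. These results do not show that the groups are alike.

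Marker genes of the cell types moved with these results. Of 10 epithelial markers 7 were lower in INT (median logFC -1.43), their sum being 4324 to 5856 CPM at estrus and 868 to 2888 CPM in INT. In bulk tissue fewer cells of a type and less RNA per cell cannot be told apart. Of 6 endothelial markers all 6 were higher, as were 6 of 10 stromal, 6 of 6 progesterone-response and 4 of 7 glandular markers, and 5 of 6 tested immune cell markers, the sixth being lower. Of 3 red blood cell markers 2 were higher in INT. Of 7 estrogen-response genes 1 was lower in INT, 6 in SVX, 2 in SVX_VAS and 3 in VAS. The part of these changes in the members' values was not tested.

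Levels of Galnt7, B3gnt3, Fut2, Galnt12, Galnt3, B3galt5, Fut9 and Galnt6 were also set against the epithelial marker sum. Of these, B3galt5, Fut9 and Galnt6 were not called lower in INT. B4galt5, Galnt4, Gcnt1, Gcnt2 and both St6galnac2 models were called lower there but were not examined in this way. Per 1000 CPM of epithelial markers, Galnt7 stood at 45.2 to 54.4 CPM at estrus and at 43.9 to 54.0 CPM in INT, so that the ranges overlapped. B3gnt3 stood at 21.5 to 24.3 CPM and at 15.4 to 23.6 CPM, which also overlapped. Fut2 went from 95.9 to 112 CPM at estrus to 41.3 to 93.1 CPM in INT, and Galnt12 from 22.2 to 23.9 CPM to 5.94 to 19.9 CPM. For B3galt5 the values were 9.57 to 11.3 CPM and 0.399 to 8.11 CPM. Galnt3 went from 28.7 to 37.2 CPM to 6.96 to 24.5 CPM. Fut2, Galnt12, Galnt3 and B3galt5 were thus lower than at estrus on this scale too, in all 4 INT libraries. The markers in the sum moved unequally. The mean of Krt7 was 824 CPM in CONT and 169 CPM in INT, and that of Cldn3 was 148 and 150 CPM. A scale built on other markers was not tested. Fut9, at 96.7 to 155 CPM and 23.1 to 100.7 CPM, and Galnt6, at 5.49 to 12.0 CPM and 3.82 to 6.73 CPM, overlapped. In VAS 2 and 3 the values were 101.5 and 86.6 CPM for Galnt7, 42.2 and 44.3 CPM for B3gnt3, 122.6 and 89.96 CPM for Fut2, and 264 and 111 CPM for Fut9. For Galnt3 they were 40.3 and 37.2 CPM, for Galnt12 22.0 and 28.0 CPM and for Galnt6 43.5 and 10.8 CPM. Each of these 7 genes was thus within or above its estrus range in 1 or both of these libraries, while B3galt5, at 5.61 and 1.5 CPM, was below it. SVX_VAS 2 also reached or passed the estrus range for Fut2 (97.9 CPM), Fut9 (145 CPM) and Galnt6 (14.8 CPM).

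**Figure D5:**
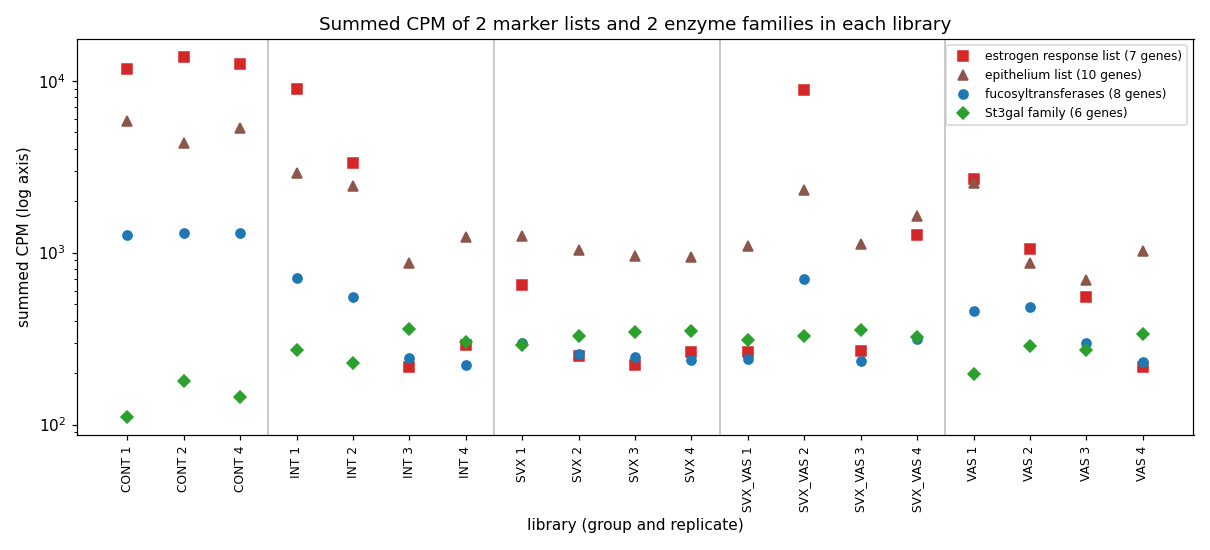
Summed CPM in each library (points, log axis) of the estrogen-response list (7 genes), the epithelium list (10 genes), the Fut family and the St3gal family, by group. INT 1, INT 2 and SVX_VAS 2 are the upper points among mated libraries on the estrogen-response list (8995, 3344 and 8841 CPM) and on the Fut sum, while the St3gal sum has a mean of 144 CPM in CONT (SD 34.0, n = 3) and 290.2 CPM in INT (SD 56.0, n = 4).

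Genes that supply or remove the sugars, and the carriers and readers of the glycans, were examined in 7 lists. Of 10 tested genes of sialic acid supply and removal, 2 were higher and 3 lower in INT (median logFC -0.00). Npl, the lyase that breaks sialic acid down, rose most (logFC 6.13 ± 0.64, FDR = 4.38e-06) and Neu1, the lysosomal sialidase, fell most (-1.27 ± 0.29, FDR = 0.00176). Of 11 genes of fucose supply, transfer and removal, 1 was higher and 6 were lower (median -0.91). There the fucose kinase gene Fuk rose (0.69 ± 0.15, FDR = 0.00104) and Sec1, a relative of Fut2, fell most (-2.26 ± 0.74, FDR = 0.0191). Of 14 genes of galactose and N-acetylglucosamine supply, 1 was higher and 6 were lower (median -0.43), with Gfpt2 rising by a logFC of 1.61. Over all genes tested the median was -0.01, and 20.9% were higher and 12.7% lower.

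Of 14 tested genes of core 1 synthesis, N-glycan branching and other capping, 4 were higher and 7 lower in INT (median logFC -0.57), with B4galnt4 at 2.85 and the branching enzyme gene Mgat4a at -1.89. Of 5 tested sulfotransferase genes, 2 were higher and 1 lower (median -0.27), with Chst2 at 2.84 and Chst7 at -1.49. Of 10 tested mucin genes, 2 were higher and 1 was lower (median -0.35). The endothelial sialomucin gene Emcn was at 2.44 and Muc1, a mucin of the epithelial surface, at -2.25. The summed level of all 13 listed mucin genes was 2935 to 3267 CPM at estrus and 710 to 2049 CPM in INT. Of 13 tested selectins, galectins and siglecs, 6 were higher and 3 lower (median 0.76), with the E-selectin gene Sele at 4.36 and Lgals3, the galectin-3 gene, at -1.19. Npl, Emcn and Sele remained the largest rises of their lists in the other 3 comparisons with CONT.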

How the data were processed

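Per the labels and the study's methods, total RNA was extracted with Trizol, libraries were made with the TruSeq Stranded total RNA kit, and the authors aligned reads to GRCm38 (mm10) with STAR and counted them per gene with featureCounts. Versions and the strand setting of the counting are not given in the sources used here. The deposited table holds raw counts of 49089 genes in 19 libraries, with the exon length of each gene in bases (unit other), as deposited, used for values per kilobase. Columns were matched to samples through their descriptions, and 0 columns of samples outside this series were met. Those reaching 3 CPM in 3 or more libraries (17222 genes) were tested with the quasi-likelihood test of edgeR 4.0.16 (R 4.3.3) on all 5 groups together with TMM scaling and a prior count of 2, with Benjamini-Hochberg adjustment over all genes tested. Calls needed an FDR no higher than 0.05 and a change of 1.5-fold or more in either direction (logFC of 0.583 in size). CPM values were computed from the counts with the same TMM scaling, and ± after a logFC is its standard error.

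The script was tested on simulated data for INT against CONT with 17222 genes, of which 200 were changed. It found 56 of 100 genes changed 2-fold and 87 of 100 changed 4-fold, with 2 false calls. In the data 33.6% of the genes were called, so the rates of the simulation need not hold there. Members and gene lists were chosen with earlier results of these data known. Values in each CONT and INT library, and values or ranges in the other groups, were given for the called members with the 8 largest rises and the 8 largest falls in INT, and for the member with the highest level per kilobase in each family. Other called members were given by their logFC. In the gene lists, the called genes with the largest rise and fall were named, except for 1 gene that is not reported here. Any other member or gene with values was chosen after its values were seen. Alternatives were DESeq2 1.42.0, limma-voom (limma 3.58.1), other scalings and filters, 2 groups at a time, a replicate block and leaving out libraries. The labels do not pair libraries of the same replicate number, and the main test did not treat them as pairs. Of 36 same-numbered pairs, 15 had correlated deviations over 0.1, and no chance rate was set beside this count. Promoters came from RefSeq for GRCm38.p6, and plots were made with matplotlib 3.10.9.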

Additional observations from a re-analysis of the deposited data

Results flagged for a closer look

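In each of the 4 mated groups of 4 libraries, the members chosen by the rule for named genes were examined for a library far from the others on the log2(CPM + 0.5) scale, which gave 88 groups of 4 libraries. There were 4 such cases, 3 of them in VAS 1 and 1 in SVX 1, and chance gives about 4.4. St8sia2 was at 2.03 CPM in VAS 1, against 6.90 to 8.04 CPM in the other VAS libraries. B3gnt5 was at 11.2 CPM in VAS 1, against 48.0 to 54.2 CPM. Fut10 was at 21.8 CPM in VAS 1, against 40.5 to 42.5 CPM. Galnt3 was at 26.2 CPM in SVX 1, against 8.34 to 9.91 CPM in the other SVX libraries.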

How the results depend on the processing

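The number of members called in INT against CONT was 31 and ranged from 27 to 37 when 1 library was left out (17 to 21 higher, 9 to 16 lower), while the share of all genes ranged from 28.6 to 36.4%. The ranges were 36 to 41 in SVX (all genes 37.5 to 42.4%), 32 to 38 in SVX_VAS (33.5 to 39.9%) and 31 to 37 in VAS against CONT (35.8 to 47.9%), and 0 to 0 against INT. Without INT 1 and 2, an alternative added after the data were seen, 36 members were called in INT (against 38.9% of all genes), 17 of them lower, and 29 of the 31 calls were shared. Without VAS 2 and 3, also added, 35 were called in INT (31 shared, against 38.2% of all genes) and 32 in VAS (30 shared, against 36.3% of all genes). With upper quartile scaling, which moved the median logFC of all genes in INT from -0.01 to 0.12, 21 members were higher and 10 lower in VAS (against 28.8% and 12.1% of all genes). With limma-voom 4 members were called in VAS against INT (against 9.66% of all genes). With edgeR 3.35% of all genes were called there without VAS 1 and 0.779% without VAS 4, none of them a member. Same-numbered libraries were not paired by the labels, and the best match of a library had its own number in 24 of 72 cases. With the replicate block 32, 38, 36 and 37 members were called in INT, SVX, SVX_VAS and VAS against CONT (all genes 32.6, 40.2, 37.2 and 39.4%) and 0 against INT. The log2 ratio of family sums, INT over CONT, was -0.07 for St6galnac and turned to 0.11 with library totals and 0.054 with upper quartile scaling, and ranged from -0.15 to 0.0099 when 1 library was left out. For St8sia it was 2.30 and ranged from 2.03 to 2.56. For Fut it was -1.57, and -2.47 without INT 1 and 2. For B4galt it was -0.11, but 0.078 with library totals and 0.019 with upper quartile scaling. B3galt2 in VAS had a logFC of 0.13 without VAS 2 and 3. For Galnt1 in INT the logFC was 0.01, but -0.038 with a filter of 1 CPM, -0.015 with no filter and between -0.038 and 0.062 when 1 library was left out, and in SVX it was 0.03, and -0.0099, -0.0063 and between -0.015 and 0.077 under the same changes. The cause of these shifts was not tested. Counts near the floor limit St6gal2 and St8sia2 at estrus.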
